A study of Homo sapiens with 12 samples.

Results

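Polycomb repressive complex 2 (PRC2) is the enzyme that methylates lysine 27 of histone H3, a mark found on silenced developmental genes. Its core holds a methyltransferase, EZH2 or the paralogue EZH1, together with EED, which reads the mark, the scaffold SUZ12, and a histone-binding WD40 protein, RBBP4 or RBBP7. Accessory subunits divide the core into separate forms: MTF2 and PHF19 belong to PRC2.1, and JARID2 and AEBP2 to PRC2.2. CBX7 is a reader of the same mark and works in Polycomb repressive complex 1, which is why its loss is of interest for the PRC2 genes. The 10 subunit genes named here, EZH1, EZH2, EED, SUZ12, RBBP4, RBBP7, JARID2, AEBP2, MTF2 and PHF19, were taken by symbol. All 10 were found, among 29890 genes in the table of one cell line and 58735 in that of the other. All 10 also passed the filter on low values in both.

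The libraries came from 5637, a human bladder carcinoma line, and 786-O, a human renal carcinoma line, both kept in RPMI-1640 with serum. In each line 3 libraries of cells with a short hairpin RNA against CBX7 (shCBX7) were set against 3 libraries with a control hairpin (sh control), 12 libraries in all, and no further treatment is recorded. The hairpin is named by the sample titles. The column names of the values say Si and SiNC for 5637 and si for the silenced 786-O cells, and the titles were followed here. Levels are FPKM, fragments scaled by gene length and by library depth, so genes of different length can be set side by side. The series asks, by its title, how CBX7, EZH2 and FGFR3 relate in bladder cancer cells. For 2 control libraries of 5637 the title gives another line number, but the cell line label is 5637. Control libraries of 5637 are numbered here as the columns of the table are, since they could not be tied to single titles. No source says whether the libraries of an arm are separate cultures, so the p-values reflect library-to-library spread alone, and that spread may be technical.

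CBX7 itself was lower in every shCBX7 library. In 5637 it was at 2.19, 2.17 and 2.42 FPKM in the controls and 1.86, 1.80 and 1.97 FPKM in the silenced cells, and it fell by 16.7% on average (limma adjusted p = 0.0188). In 786-O it was at 1.63, 1.75 and 1.49 FPKM against 1.01, 0.892 and 1.07 FPKM, and it fell by 39.0% (limma adjusted p = 0.00364). The call in 5637 was lost without control library 3 (limma adjusted p = 0.0586) or shCBX7 library 2 (0.0608). Basal epithelial markers fitted 5637, where KRT5 was at 189 FPKM and TP63 at 44.8 FPKM in the controls, although the urothelial UPK2 and UPK3A stayed below the filter of 0.5 FPKM. The renal transcription factor PAX8 stood at 37.8 FPKM in control 786-O cells and at 0.105 FPKM in control 5637 cells, while the proximal tubule receptors LRP2 and CUBN were near 0 in 786-O. The summed level of the 7 urothelial and basal markers, 5 of them above the filter, was 696 to 706 FPKM in control and 914 to 943 FPKM in silenced 5637 cells. The keratins KRT5, KRT17 and KRT7 carried that sum, while GATA3 of the same list fell from 11.6 to 10.3 FPKM (limma adjusted p = 0.0337). That of the 7 renal tubule markers, 5 above the filter, was 53.3 to 55.4 FPKM in control and 39.02 to 39.96 FPKM in silenced 786-O cells. Both marker sums moved with the arms, and their part in the PRC2 values was not tested. Endothelial markers stayed below the filter in both lines, and of the leukocyte and fibroblast markers CD14 in both lines, COL1A1 in 5637 and LUM in 786-O were above it. COL1A1 fell in 5637 from 14.4 to 12.3 FPKM (limma adjusted p = 0.00137) and LUM rose in 786-O from 1.66 to 2.76 FPKM (0.00222), and their part in the PRC2 values was likewise not tested.

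After CBX7 silencing the median size of change of the PRC2 genes was smaller in 5637 than in 786-O, as it was for all tested genes. The PRC2 genes did not move together. EZH2 and EZH1 stood out in 5637, with changes larger in size than those of 95.4% and 92.0% of tested genes. In 5637, 4 of 10 fell (EZH2, EZH1, MTF2 and RBBP4) and 1 rose (SUZ12). In 786-O, 4 of 10 rose (RBBP4, JARID2, EZH1 and MTF2) and 3 fell (PHF19, SUZ12 and EED). Each of the 4 genes called in both lines, EZH1, RBBP4, MTF2 and SUZ12, went in opposite directions in them. The 5637 calls of RBBP4 and SUZ12 were each lost in 7 of 13 alternatives, while those of EZH1 and MTF2 held in all 13. Calls are limma's at an adjusted p under 0.05, over all genes tested, and they are frequent in this series. In 5637 44.5% of the 12689 tested genes were called, 20.2% lower and 24.4% higher. In 786-O 51.0% of 13220 were called, 26.2% lower and 24.7% higher. The 5 members called in 5637 and the 7 called in 786-O are to be read against those shares, and the count in 5637 is near its background. In bulk RNA, a change in the mix of cells cannot be told apart from a change in RNA per cell. The median change of the 10 genes on the log2(FPKM + 1) scale, which understates the changes of low genes, was -0.07 in 5637, where that of all tested genes was 0.01, and -0.02 in 786-O, where it was -0.01. The median size of a change, without its sign, was 0.10 for the members and 0.10 for all tested genes in 5637, and 0.31 and 0.24 in 786-O.

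**Figure D1:**
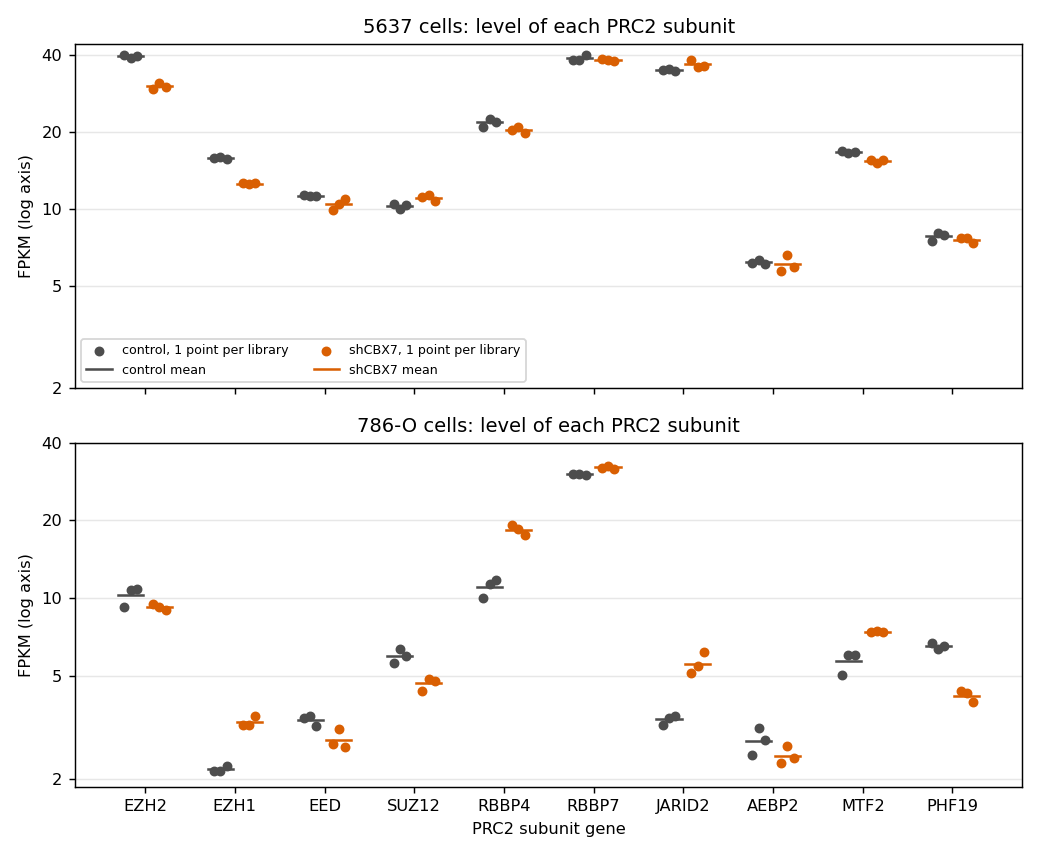
FPKM on a log axis of each PRC2 subunit in every library of 5637 (top) and 786-O (bottom), 3 control libraries in grey and 3 shCBX7 libraries in orange, with the mean of each arm as a line. EZH2 and EZH1 drop in 5637, while RBBP4, JARID2, EZH1 and MTF2 stand higher and PHF19 and SUZ12 lower in the silenced 786-O cells.

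The catalytic subunits gave the 2 largest changes of the complex in 5637. EZH2, the main methyltransferase of dividing cells, was at 40.1, 38.9 and 39.6 FPKM in the control libraries and at 29.5, 31.2 and 30.1 FPKM in the shCBX7 libraries. The arms were well apart, and the level fell by 23.4% (log2 change -0.37, SE 0.026, limma adjusted p = 1.09e-04). EZH1, the paralogue that prevails in resting cells, was at 15.9, 15.98 and 15.7 FPKM in the controls and at 12.6, 12.5 and 12.7 FPKM after silencing. Every silenced library lay below every control, and it fell by 20.6% (log2 change -0.31, SE 0.020, limma adjusted p = 7.97e-05). These changes were larger in size than those of 95.4% of tested genes for EZH2 and 92.0% for EZH1. Both calls held under all 13 alternatives run for that line.

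In 786-O the pair parted. EZH1 was at 2.15, 2.14 and 2.25 FPKM in the controls and at 3.22, 3.24 and 3.52 FPKM after silencing, without overlap, 1.53 times the control level (log2 change 0.44, SE 0.059, limma adjusted p = 5.98e-04). EZH2 was at 9.26, 10.8 and 10.9 FPKM against 9.49, 9.22 and 9.04 FPKM. Its first control library lay among the silenced ones, and the change of -0.14 (SE 0.068) was not called (limma adjusted p = 0.124). Without that control library EZH2 was called lower (-0.21, limma adjusted p = 0.0102). The change of EZH1 differed between the lines by 0.75 (786-O minus 5637, SE 0.048, limma interaction term, adjusted p = 2.10e-07), and that of EZH2 by 0.24 (SE 0.073, adjusted p = 0.0176).

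Set against each other within a library, EZH2 made up 71.6, 70.9 and 71.6% of the EZH1 and EZH2 FPKM in control 5637 cells and 70.0, 71.4 and 70.4% in silenced ones. Those arms overlapped (exact two-sided permutation p = 0.2), as both genes fell to a like degree. In 786-O the EZH2 share went from 81.1, 83.5 and 82.9% to 74.7, 74.0 and 72.0%, and on average it fell by 8.96 percentage points. The arms did not overlap, and the exact two-sided permutation p was 0.1, the smallest that 3 against 3 libraries can give. The sum of the 2 genes moved the other way round. It went from 55.4 ± 0.59 to 42.9 ± 0.83 FPKM in 5637 (SD, n = 3 each, exact permutation p = 0.1) but was 12.5 ± 0.94 and 12.6 ± 0.13 FPKM in 786-O (SD, n = 3 each, exact permutation p = 1.0). Adjusted over the 6 shares tested, the smallest p was 0.15, so no share passed the threshold.

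The promoters of this pair are shown because the 2 genes fell alike in 5637 and differed in 786-O. Each line holds the 250 bases before the RefSeq start site on the gene's own strand, 5′ to 3′, from GRCh38.p14. Capitals mark CCAAT (or ATTGG on the other strand) and 4 words that E2F factors are known to bind, TTGGCGC, then TTCCCGC, also TTGCCGC, and lastly TTCGCGC, searched on both strands, where the words may overlap each other. EZH2 lies on chromosome 7 (minus strand, window chr7:148884292-148884541) and EZH1 on chromosome 17 (minus strand, window chr17:42745041-42745290).
EZH2: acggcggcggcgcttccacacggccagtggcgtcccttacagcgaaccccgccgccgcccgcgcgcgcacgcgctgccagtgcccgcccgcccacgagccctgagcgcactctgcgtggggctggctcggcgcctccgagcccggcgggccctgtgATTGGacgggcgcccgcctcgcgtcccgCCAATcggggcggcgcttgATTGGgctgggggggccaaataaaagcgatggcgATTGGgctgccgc
EZH1: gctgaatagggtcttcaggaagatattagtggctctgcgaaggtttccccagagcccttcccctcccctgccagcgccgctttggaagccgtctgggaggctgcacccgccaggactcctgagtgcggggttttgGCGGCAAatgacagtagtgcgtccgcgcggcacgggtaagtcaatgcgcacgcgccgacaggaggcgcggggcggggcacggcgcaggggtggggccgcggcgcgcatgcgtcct
The EZH2 window held 4 CCAAT matches and 0 E2F matches, and the EZH1 window 0 and 1. Over all 35116 RefSeq windows of this length, 32.0% held CCAAT and 10.9% an E2F word. Of the 10 members, 7 held CCAAT and 5 an E2F word. For 5 members (EZH2, RBBP4, RBBP7, JARID2 and PHF19) RefSeq has 2 windows, and the one nearest the gene's listed edge was used. The windows of AEBP2 and PHF19, both counted among the 5 with an E2F word, lie 36554 and 17708 bases from that edge. The members' windows had a median of 30.0 CpG against 11.0 over all windows, and the share of windows with an E2F word was not compared at equal CpG content. A match describes these letters only.

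The partners of the methyltransferase, EED and SUZ12, went separate ways in 5637 and both lower in 786-O. SUZ12 was at 10.5, 10.0 and 10.4 FPKM in control and 11.1, 11.4 and 10.8 FPKM in silenced 5637 cells, a rise of 0.10 (SE 0.029, limma adjusted p = 0.0274). EED was at 11.4, 11.3 and 11.2 FPKM against 9.96, 10.5 and 11.0 FPKM, lower in every library but short of the threshold (-0.10, SE 0.035, limma adjusted p = 0.0506). Neither result in 5637 was firm. SUZ12 lost its call with quantile normalization (limma adjusted p = 0.0733), with median centring (0.0547) and without control library 2 or 3 or shCBX7 library 1 or 2 (0.0809, 0.0543, 0.0629 and 0.0857), and EED gained one with either scaling (0.0212 and 0.0259), with voom (0.0233) and without shCBX7 library 3 (0.0193).

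In 786-O SUZ12 went from 5.63, 6.36 and 5.99 FPKM to 4.397, 4.86 and 4.80 FPKM. The arms did not overlap, and it fell by 21.8% (log2 change -0.30, SE 0.063, limma adjusted p = 0.00558). EED went from 3.44, 3.51 and 3.22 FPKM to 2.73, 3.11 and 2.66 FPKM, again without overlap (-0.20, SE 0.067, limma adjusted p = 0.0419). EED lost its call without any single control library (limma adjusted p = 0.0817, 0.112 and 0.0590 without library 1, 2 and 3), without shCBX7 library 1 (0.119) or 3 (0.129), with median centring (0.0519), and with no filter on low values (0.0945). The change of SUZ12 differed between lines by -0.40 (SE 0.065, limma interaction term, adjusted p = 3.26e-04), whereas that of EED did not pass (-0.10, SE 0.071, adjusted p = 0.274).

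SUZ12 has a partial copy on the same chromosome, SUZ12P1, whose level in 786-O went the opposite way. SUZ12P1 was at 2.49, 2.51 and 2.39 FPKM in the controls and 3.37, 3.37 and 3.63 FPKM after silencing (log2 change 0.36, SE 0.057, limma adjusted p = 0.00143). Reads of the 2 genes can be exchanged where their sequence is shared, so their separate values are less certain. The ratio of methyltransferase to scaffold, EZH1 plus EZH2 FPKM over SUZ12 FPKM, fell from 5.38 ± 0.09 to 3.86 ± 0.09 in the library means of 5637 and stood at 2.09 ± 0.09 and 2.69 ± 0.17 in 786-O (SD, n = 3 each, exact two-sided permutation p = 0.1 in each line). It thus ended lower in the silenced arm of 5637 and higher in that of 786-O, with no overlap of arms in either.

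**Figure D2:**
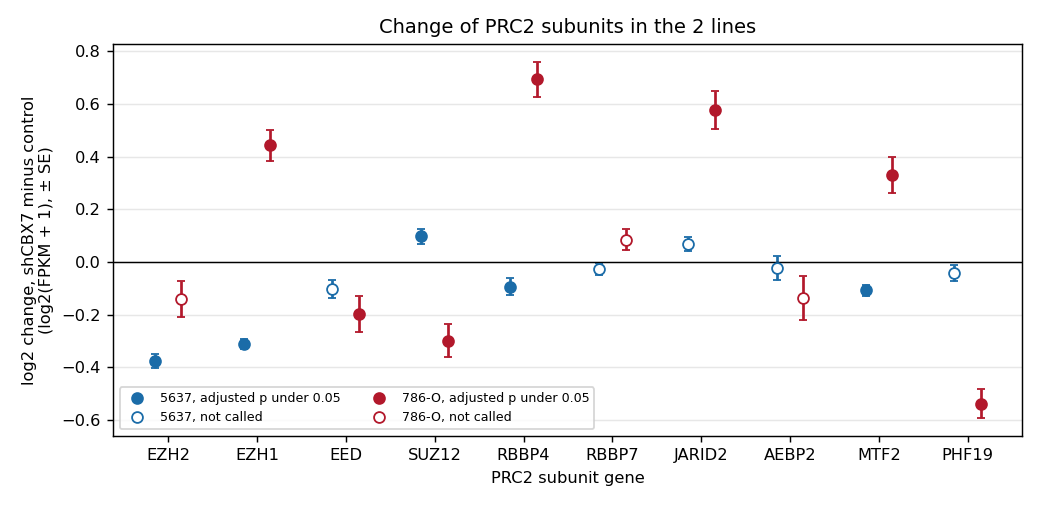
Log2 change of each PRC2 subunit, shCBX7 minus control on the log2(FPKM + 1) scale, with the standard error of the limma fit as bars, for 5637 (blue) and 786-O (red), filled where the adjusted p was under 0.05. EZH1, RBBP4, MTF2 and SUZ12 carry filled points on opposite sides of 0, from -0.31 and 0.44 for EZH1 to 0.10 and -0.30 for SUZ12. The 5637 calls of RBBP4 and SUZ12 were each lost in 7 of 13 alternatives.

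RBBP4 showed the largest rise of the 10 genes in 786-O. This histone chaperone subunit, shared with deacetylase and chromatin assembly complexes, was at 10.0, 11.3 and 11.8 FPKM in the controls and at 19.2, 18.5 and 17.6 FPKM in the silenced cells. The arms were far apart, the silenced mean was 1.67 times the control mean (log2 change 0.69, SE 0.067, limma adjusted p = 1.27e-04), and the change was larger in size than in 90.2% of tested genes. Its paralogue RBBP7, also shared among those complexes, was at 30.3, 30.2 and 30.1 FPKM against 32.0, 32.6 and 31.7 FPKM. RBBP7 was higher in every silenced library, yet the change of 0.09 (SE 0.039) was not called (limma adjusted p = 0.109). RBBP4 therefore made up 24.9, 27.2 and 28.1% of the pair in control 786-O cells and 37.5, 36.2 and 35.7% after silencing (exact two-sided permutation p = 0.1).

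In 5637 RBBP4 was at 21.0, 22.6 and 21.9 FPKM in the controls and 20.4, 21.0 and 19.8 FPKM after silencing. The groups came close without touching, and the change of -0.09 (SE 0.032) only just passed (limma adjusted p = 0.0497). It was lost in 7 of the 13 alternatives, among them the omission of control library 2 (limma adjusted p = 0.138) or 3 (0.117) or of shCBX7 library 1 (0.0992) or 3 (0.145). RBBP7 in 5637 was at 38.4, 38.4 and 39.97 FPKM against 38.6, 38.1 and 37.9 FPKM, with overlapping arms (-0.03, limma adjusted p = 0.387). The RBBP4 share of the pair was 35.9 ± 0.90% in control and 34.8 ± 0.61% in silenced 5637 cells (SD, n = 3 each, exact permutation p = 0.3). Between lines the change of RBBP4 differed by 0.79 (SE 0.076, limma interaction term, adjusted p = 5.44e-06).

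RBBP4 has many pseudogenes, and 1 of those in the 786-O table, RBBP4P1, passed the filter. It rose from 1.71 ± 0.12 to 2.44 ± 0.31 FPKM (SD, n = 3; log2 change 0.34, limma adjusted p = 0.0111), on 36 to 59 reads per library, but not with voom on recovered reads (limma adjusted p = 0.0702). RBBP4 itself rests on 1585 to 3447 reads per library there. On the opposite strand SYNC overlaps RBBP4 and rose too in 786-O, from 3.37 to 4.81 FPKM (limma adjusted p = 0.00752), and TXLNG overlaps RBBP7 and fell from 4.003 to 2.80 FPKM (limma adjusted p = 9.00e-04). How the authors' counting treated strand is not stated, and the part of these neighbours in the RBBP4 and RBBP7 values was not tested. SYNC was at 0.0979 FPKM in control 5637 cells.

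The promoters of this second pair are shown in the same way, since RBBP4 rose in 786-O and RBBP7 was not called in either line. RBBP4 lies on chromosome 1 (plus strand, window chr1:32650958-32651207) and RBBP7 on chromosome X (minus strand, window chrX:16870363-16870612).
RBBP4: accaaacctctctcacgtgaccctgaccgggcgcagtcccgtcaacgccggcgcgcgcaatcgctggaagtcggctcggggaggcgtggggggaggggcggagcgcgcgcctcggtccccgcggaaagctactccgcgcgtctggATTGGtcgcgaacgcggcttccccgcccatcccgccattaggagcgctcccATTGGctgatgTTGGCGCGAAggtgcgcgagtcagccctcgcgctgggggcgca
RBBP7: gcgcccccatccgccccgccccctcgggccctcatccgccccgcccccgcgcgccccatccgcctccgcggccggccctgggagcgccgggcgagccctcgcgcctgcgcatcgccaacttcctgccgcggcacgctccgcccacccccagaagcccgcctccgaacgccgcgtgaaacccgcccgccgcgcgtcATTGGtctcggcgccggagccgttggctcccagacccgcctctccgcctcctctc
The RBBP4 window held 2 CCAAT matches and 2 overlapping E2F words, and the RBBP7 window held 1 CCAAT match and 0 E2F words.

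JARID2 and AEBP2, the subunits of PRC2.2, also behaved differently from each other. JARID2, which helps to bring PRC2 to chromatin, was at 3.25, 3.44 and 3.52 FPKM in control 786-O cells and at 5.12, 5.45 and 6.17 FPKM in silenced ones. Every silenced library lay above every control, at 1.64 times the control mean (log2 change 0.58, SE 0.072, limma adjusted p = 4.37e-04). AEBP2, a zinc finger partner that stimulates the enzyme, was at 2.47, 3.14 and 2.82 FPKM against 2.30, 2.68 and 2.41 FPKM, with overlapping arms (-0.13, limma adjusted p = 0.213). In 5637 JARID2 was at 35.1, 35.3 and 34.8 FPKM against 38.4, 35.9 and 36.3 FPKM, higher in all silenced libraries but not called (0.07, limma adjusted p = 0.0803), although voom on recovered reads did call it (0.0389). AEBP2 in 5637 was at 6.19, 6.34 and 6.12 FPKM against 5.75, 6.62 and 5.97 FPKM (-0.02, limma adjusted p = 0.722). The change of JARID2 differed between lines by 0.51 (SE 0.075, limma interaction term, adjusted p = 1.44e-04) and that of AEBP2 by -0.11, which did not pass (adjusted p = 0.343).

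An antisense transcript, JARID2-AS1, overlaps JARID2 on the other strand. In 5637 it went from 1.26 to 0.331 FPKM (log2 change -0.76, limma adjusted p = 6.76e-04), and in 786-O from 0.381 to 0.0797 FPKM, below the filter. Its mean thus went down after silencing in each line, while JARID2 rose in 786-O and was not called in 5637.

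The PRC2.1 subunits MTF2 and PHF19, both of which bind methylated lysine 36 of histone H3 through a Tudor domain, moved apart in 786-O. PHF19 fell from 6.72, 6.35 and 6.56 FPKM to 4.36, 4.28 and 3.96 FPKM. The arms were well separated, and it fell by 35.8% (log2 change -0.54, SE 0.055, limma adjusted p = 1.70e-04), the largest fall among the 10 genes in that line. MTF2 rose from 5.07, 6.04 and 6.01 FPKM to 7.42, 7.44 and 7.38 FPKM (log2 change 0.33, SE 0.068, limma adjusted p = 0.00526). In 5637 MTF2 went from 16.8, 16.6 and 16.7 FPKM to 15.6, 15.2 and 15.6 FPKM, a small fall outside the spread of the libraries (-0.11, SE 0.021, limma adjusted p = 0.00596). PHF19 was at 7.53, 8.09 and 7.93 FPKM against 7.69, 7.71 and 7.40 FPKM there, with overlap (-0.04, limma adjusted p = 0.338). The changes differed between lines by 0.44 for MTF2 (SE 0.070, limma interaction term, adjusted p = 2.81e-04) and by -0.50 for PHF19 (SE 0.058, adjusted p = 2.31e-05).

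JARID2 plus AEBP2 made up 32.7, 34.7 and 33.5% of the summed FPKM of the 4 accessory genes in control 786-O cells and 38.6, 41.0 and 43.1% in silenced ones, a gain of 7.28 percentage points. In 5637 the same share went from 62.9, 62.8 and 62.4% to 65.5, 65.0 and 64.8%, a gain of 2.39 points. The arms did not overlap in either line, and the exact two-sided permutation p was 0.1 in each. Among these 4 genes alone, PRC2.2 was thus the larger part of the messages in 5637 and the smaller part in 786-O, in both arms. The share leaves out PHF1 and EPOP, further partners in PRC2.1. PHF1 was at 18.1 FPKM in control and 23.5 FPKM in silenced 786-O cells, above each of the 4 accessory genes. The size of the share and of its gain in 786-O therefore depends on the choice of these 4 genes. These are shares of RNA and not of assembled complex, and the tables of the lines were scaled separately, so levels were not tested across them.

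**Figure D3:**
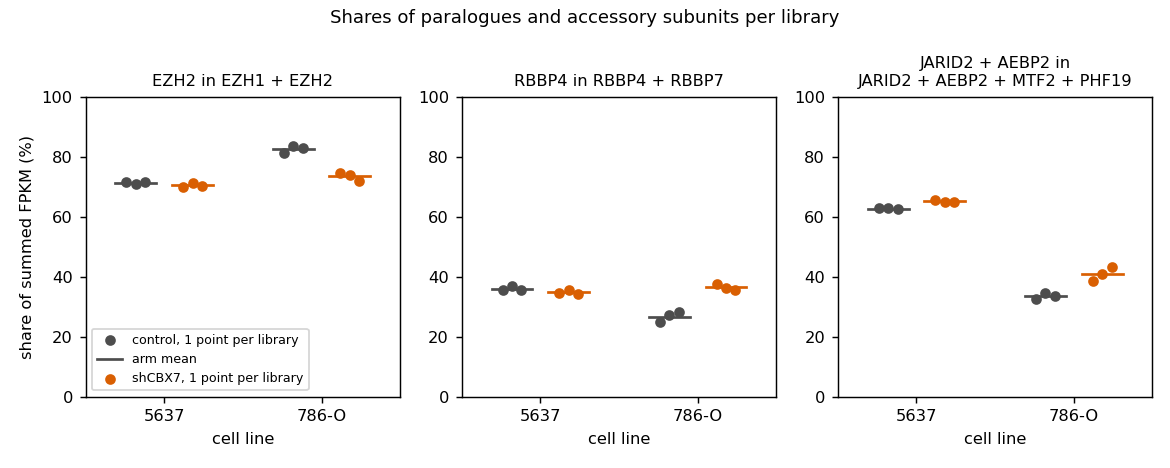
Share of the summed FPKM, in percent and 1 point per library, of EZH2 in EZH1 plus EZH2 (left), of RBBP4 in RBBP4 plus RBBP7 (middle) and of JARID2 plus AEBP2 in the 4 accessory genes (right), control in grey and shCBX7 in orange, with lines at the arm means. In 786-O the EZH2 share is lower (82.5 to 73.5% on average) and the RBBP4 and PRC2.2 shares are higher after silencing, while in 5637 the first 2 shares overlap between arms. The share on the right leaves out PHF1 and EPOP.

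Counted by the arms alone, 7 of 10 members had no overlap between control and silenced libraries in 5637, where 56.4% of all tested genes had none, and 8 of 10 in 786-O, where 60.3% had none. The change differed between the lines in 8 of 10 members, 6 with a higher and 2 with a lower change in 786-O, against 53.3% of all 12777 genes tested for that difference. RBBP7 was the least firm of the 8 (0.11, SE 0.039, limma interaction term, adjusted p = 0.0305). Its call was lost in 7 of 18 alternatives, among them the omission of control library 3 (adjusted p = 0.0871), shCBX7 library 2 (0.0620) or shCBX7 library 3 (0.0704) of 5637, or of control library 3 (0.0564) or shCBX7 library 2 (0.0654) of 786-O.

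The order of the levels differed between the 2 lines already in the control libraries. The values of each line were scaled separately, so a difference of the cells cannot be told apart from one of processing. In control 5637 cells EZH2 (39.5 ± 0.62 FPKM), RBBP7 (38.9 ± 0.90 FPKM) and JARID2 (35.1 ± 0.28 FPKM) led, followed by RBBP4, MTF2, EZH1, EED, SUZ12, PHF19 and AEBP2 (6.22 ± 0.11 FPKM, SD, n = 3 each). EZH2 and RBBP7 overlapped and all other neighbours in that order were apart. After silencing EZH2 stood behind RBBP7 and JARID2, which overlapped each other, and SUZ12 and EED exchanged places with overlapping ranges. In control 786-O cells RBBP7 led alone (30.2 ± 0.09 FPKM), followed by RBBP4 and EZH2, which overlapped. PHF19, SUZ12 and MTF2 came next, each overlapping its neighbour, then JARID2 and EED, which overlapped, then AEBP2, and EZH1 was last (2.18 ± 0.06 FPKM, SD, n = 3 each). After silencing MTF2 and JARID2 stood above SUZ12 and PHF19, and EZH1 above EED and AEBP2. The last 2 overlapped and no other neighbours did. The 10 genes together summed to 203.6 ± 0.68 FPKM in control and 189.1 ± 1.29 FPKM in silenced 5637 cells, and to 81.6 ± 2.85 and 90.3 ± 1.08 FPKM in 786-O (SD, n = 3 each, exact permutation p = 0.1 in each line).

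Of 23 other genes around PRC2 and lysine 27 (further accessory subunits, demethylases, deubiquitinase subunits and enzymes reported to act on EZH2), 19 were tested in 5637, with 6 lower and 4 higher, and 21 in 786-O, with 9 lower and 3 higher. Over all tested genes 20.2% were lower and 24.4% higher in 5637, and 26.2% and 24.7% in 786-O, and the share of the list called in either direction was near that background in both lines. The median change was 0.01 in 5637 and -0.13 in 786-O. In 5637 the 3 with the smallest p were JMJD6, a hydroxylase (16.7 ± 0.10 to 14.2 ± 0.21 FPKM, limma adjusted p = 3.35e-04), KDM6A, a demethylase that removes the PRC2 mark (11.2 ± 0.23 to 13.5 ± 0.19 FPKM, 3.38e-04), and NSD1, a lysine 36 methyltransferase (9.15 ± 0.22 to 10.9 ± 0.25 FPKM, 7.22e-04; SD, n = 3 each). In 786-O they were the kinases CDK2 (20.3 ± 0.68 to 14.7 ± 0.59 FPKM, limma adjusted p = 2.85e-04) and AKT1 (15.6 ± 1.08 to 22.3 ± 0.45 FPKM, 3.24e-04), and ASXL1, a partner of the deubiquitinase BAP1 (4.99 ± 0.24 to 3.34 ± 0.16 FPKM, 4.69e-04; SD, n = 3 each).

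The PRC2.1 partners PHF1 and EPOP, named here after their values were seen, passed the filter in 786-O only. Levels were not tested across the lines, whose values were scaled separately, so a difference of the cells cannot be told apart from one of processing. PHF1, a Polycomb-like protein beside MTF2 and PHF19, rose in 786-O from 18.1 ± 0.87 to 23.5 ± 0.10 FPKM (SD, n = 3; log2 change 0.36, limma adjusted p = 6.93e-04), and stood at 0.196 FPKM in control 5637 cells, below the filter. EPOP fell in 786-O from 5.45 ± 0.19 to 4.68 ± 0.09 FPKM (SD, n = 3; limma adjusted p = 0.0193) and was below the filter in 5637. The EPOP call was lost without control library 2 (limma adjusted p = 0.0542), shCBX7 library 1 (0.0562) or shCBX7 library 2 (0.0628), and with voom (0.0617).

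EZH2 is a known target of E2F factors and is high in cycling cells, so 30 regulators and cell cycle companions were read beside it. They were chosen with earlier results of these data known, so their counts are no independent test. In 5637, where EZH2 fell, 5 of 29 tested genes were lower and 7 higher, with a median change of 0.00, near the 20.2% lower and 24.4% higher of all tested genes. MYC (79.1 ± 0.80 to 96.8 ± 0.74 FPKM, limma adjusted p = 7.80e-05) and the B-Myb gene MYBL2 (78.3 ± 0.50 to 89.7 ± 1.66 FPKM, 4.43e-04) rose, and the topoisomerase TOP2A fell (281 ± 3.7 to 244 ± 2.2 FPKM, 3.66e-04; SD, n = 3 each). E2F1 was at 22.7 and 22.5 FPKM and the proliferation marker MKI67 at 47.9 and 46.9 FPKM in the control and silenced means of 5637, neither called (limma adjusted p = 0.744 and 0.191). In 786-O, where EZH2 was not called, 16 of 29 were lower and 6 higher, with a median change of -0.33, where 26.2% of all tested genes were lower and 24.7% higher. The 3 with the smallest p were the maintenance methyltransferase DNMT1 (14.4 ± 0.25 to 6.85 ± 0.31 FPKM, limma adjusted p = 7.66e-06), cyclin B1, CCNB1 (69.6 ± 0.98 to 40.5 ± 1.72 FPKM, 1.41e-05), and TOP2A (51.3 ± 4.86 to 23.4 ± 0.91 FPKM, 2.29e-05; SD, n = 3 each), all lower. MKI67 fell by 36.6% in 786-O (limma adjusted p = 0.00211), E2F1 was not called there (0.506), and MYC and MYBL2 rose as they did in 5637 (log2 change 0.48 and 0.63, limma adjusted p = 1.21e-04 and 6.68e-05). Other E2F genes of the list were called. E2F2, E2F3 and E2F4 were lower in 786-O (limma adjusted p = 5.89e-04, 0.0128 and 1.16e-04). E2F7 was higher there (0.0160), and E2F6 and E2F8 were not called. For 5637, E2F2 was lower (limma adjusted p = 0.0371) and E2F4 higher (0.00599), while E2F3, E2F6, E2F7 and E2F8 were not called. The part of these genes in the PRC2 values was not tested.

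**Figure D4:**
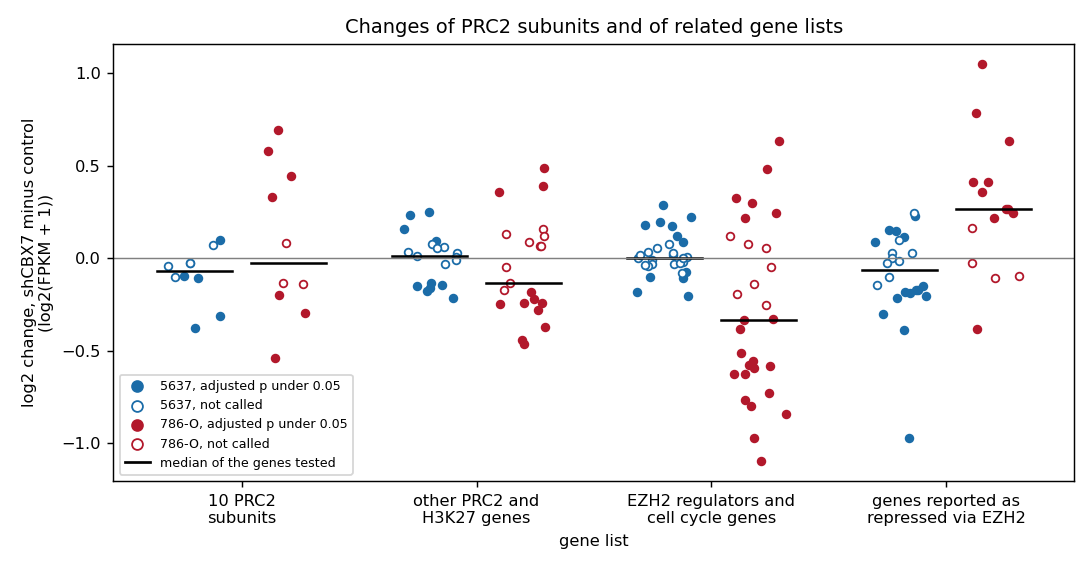
Log2 change, shCBX7 minus control on the log2(FPKM + 1) scale, of the 10 PRC2 subunits and of 3 lists of related genes in 5637 (blue) and 786-O (red), 1 point per tested gene, filled where the adjusted p was under 0.05, with a black line at the median. The cell cycle list has a median of -0.33 in 786-O and 0.00 in 5637, and the list of genes reported as repressed through EZH2 has 0.26 and -0.06. The lists were chosen with earlier results of these data known.

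Of 32 genes that other work has reported as repressed through EZH2, 24 were tested in 5637, with 10 lower and 5 higher and a median of -0.06, where 20.2% of all tested genes were lower and 24.4% higher. The 15 tested in 786-O had 1 lower and 10 higher and a median of 0.26, where 26.2% of all tested genes were lower and 24.7% higher. The tested sets are not the same genes, and the difference between the lines was not tested for the list. This list was chosen with earlier results of these data known, so its counts are no independent test. In 5637 the cell cycle inhibitor CDKN2A fell from 75.5 ± 0.96 to 64.9 ± 1.16 FPKM (limma adjusted p = 3.58e-04) and the transcription factor FOXC1 from 25.9 ± 0.19 to 20.8 ± 0.80 FPKM (3.59e-04), while the Wnt antagonist SFRP1 rose from 7.91 ± 0.12 to 9.45 ± 0.23 FPKM (6.58e-04; SD, n = 3 each). In 786-O the death receptor TNFRSF10B rose from 32.0 ± 0.21 to 55.7 ± 0.59 FPKM (limma adjusted p = 6.29e-06), the chemokine CCL5 from 23.98 ± 1.67 to 50.8 ± 3.14 FPKM (2.02e-05) and the kinase inhibitor PEBP1 from 134 ± 7.1 to 178 ± 5.4 FPKM (4.85e-04; SD, n = 3 each). TNFRSF10B and PEBP1 also rose in 5637, by less (log2 change 0.09 and 0.12, limma adjusted p = 0.00651 and 0.0206). The cell cycle inhibitor CDKN1C was called lower in both lines (limma adjusted p = 0.0336 in 5637 and 0.00519 in 786-O). Its arms overlapped in 5637, at 1.67, 4.16 and 3.35 FPKM in the controls and 1.90, 0.712 and 0.606 FPKM after silencing. CDKN2B was listed at 0 in all 786-O libraries. CDKN2A was at 0 in the 3 controls there and at 0.0122, 0 and 0.0259 FPKM after silencing, on at most 2 reads. Neither gene was tested in 786-O, and whether its DNA is intact there was not measured. The methylation mark itself was not measured.

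The genes whose values followed EZH2 most closely were FOXO3, NUFIP2, SKAP2, USP48 and ANKRD13C. Pearson's r with EZH2, over the 12 libraries centred within each line, ran from 0.977 for FOXO3 to 0.952 for ANKRD13C among 4989 genes of at least 5 FPKM in both lines, and the points share the arms and the libraries. As genes chosen for their likeness to EZH2 they share its pattern by construction. NUFIP2, for instance, was at 72.8 and 54.4 FPKM in the control and silenced means of 5637 and at 7.68 and 6.94 FPKM in those of 786-O. Of the members abundant enough to be compared, PHF19 had an r of 0.371 with EZH2, and SUZ12, MTF2, RBBP7 and RBBP4 lay between 0.0990 and -0.138.

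By the 786-O table, whose coordinates are those of GRCh38 with GENCODE release 29, EZH2 spans chromosome 7 from 148807383 to 148884321 and EZH1 chromosome 17 from 42700275 to 42745049, both on the minus strand. SUZ12 is also on chromosome 17, from 31937018 to 32001045 on the plus strand, and EED on chromosome 11 from 86244544 to 86278813. RBBP4 and MTF2 share chromosome 1 (32651142 to 32686211 and 93079235 to 93139081, both plus strand), and RBBP7 is on chromosome X from 16839283 to 16870414. JARID2 is on chromosome 6 (15246296 to 15522040), AEBP2 on chromosome 12 (19404045 to 19720801) and PHF19 on chromosome 9 (120855652 to 120894896, minus strand).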

How the data were processed

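Each line has 1 table of FPKM that the authors deposited, per the file headers. Libraries were made with a directional kit, per the labels' protocols. Not given in the sources used here: the aligner, the counter and the strand setting. The submitters' processing notes name the build mm10 although the samples are human. The authors' 786-O table also lists gene lengths, other values that its file headers give in bases. Reads were recovered from the FPKM steps (tolerance 0.01, 100.0% of 786-O genes and 93.9% of 5637 genes whole), and the totals that the steps imply range between 19784641 and 32544605 for 5637, and for 786-O between 16503790 and 18966972. For 786-O control library 1 the recovered reads came to 16961808, above the implied total of 16693519. The implied totals therefore need not be plain read depths. The lowest and highest read number of any member in a library was 748 and 9125 for 5637, and for 786-O 251 and 4487. Columns left without a group numbered 0.

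Values were turned into log2(FPKM + 1). A gene entered the fit of a line if its mean over that line's 6 libraries reached 0.5 FPKM. The fit used limma 3.58.1 (R 4.3.3, lmFit and eBayes with a trend), with Benjamini-Hochberg adjustment over all genes tested and calls under 0.05. Differences between lines came from an interaction term fitted to all 12 libraries. Shares and sums were compared by exact permutation tests (scipy 1.17.1). The fits were also run on simulated reads, in which far fewer genes were changed than were called in these data. The outcome of that run is not reported here, and no result rests on it. The members and lists were chosen with earlier results of these data known. Named genes are the 10 members, CBX7, the 3 called genes of smallest p per list and line, the 5 genes most like EZH2, and pseudogenes of members above 0.5 FPKM. Other list genes, markers and neighbouring genes were named after their values were seen. Alternatives were another pseudocount (0.1), no filter, quantile normalization, median centring, no trend, voom on recovered reads, a replicate block and leaving out each library.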

Additional observations from a re-analysis of the deposited data

Results flagged for a closer look

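The change after CBX7 silencing differed between the 2 lines for 8 PRC2 subunits by the limma interaction term (786-O minus 5637, log2(FPKM + 1) scale). It was 0.24 for EZH2, 0.75 for EZH1, 0.79 for RBBP4, 0.11 for RBBP7, 0.51 for JARID2 and 0.44 for MTF2. It was -0.40 for SUZ12 and -0.50 for PHF19. EZH1, RBBP4 and MTF2 were called lower in 5637 and higher in 786-O, and SUZ12 the reverse. The 5637 calls of RBBP4 and SUZ12 were each lost in 7 of 13 alternatives. For EZH2 both lines had a negative change, and that of 5637 was the larger in size. CBX7 itself fell by 39.0% in 786-O and by 16.7% in 5637, and its change differed between the lines by -0.22 (limma interaction term, adjusted p = 0.0268). That call was lost in 6 of 18 alternatives: median centring (adjusted p = 0.0548) and leaving out control library 1 (0.0607) or 2 (0.0636) or shCBX7 library 3 (0.0656) of 5637, or control library 2 (0.0600) or shCBX7 library 2 (0.0613) of 786-O. The part of the CBX7 level in the differences of the subunits was not tested.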

How the results depend on the processing

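Of the 10 genes in each of the 2 lines, 13 of 20 results kept their side of the threshold and their direction under all 13 alternatives, and 9 of 10 differences between lines did so under all 18. The count of members called lower in 5637 ran from 3 to 4 with single libraries left out, and that of members called higher from 0 to 1. The count called lower was 5 with quantile normalization, median centring or voom, each with EED added, and 3 with a pseudocount of 0.1, no filter or no trend, each without RBBP4. The count called higher was 0 with quantile normalization, 0 with median centring and 2 with voom on recovered reads (SUZ12 and JARID2). In 786-O the counts with single libraries left out were 2 to 3 lower and 4 higher, and for the difference 7 to 8. AEBP2 in 5637, at -0.02, ran from -0.0733 to 0.0140 with single libraries left out, positive without shCBX7 library 1, and was never called. Scaling moved the median of all genes by at most 0.0349 (difference between lines, median centring). The differences in shares moved by less than the pooled SD of the 2 arms in the alternatives run for them (0.1 FPKM added, single libraries left out). The widest range was that of the PRC2.2 share in 786-O, from 6.19 to 8.41 points.

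With the replicate number as a block, the count of members higher in 5637 was 0, as SUZ12 lost its call (0.10, limma adjusted p = 0.0699), and no other member's call changed. As a look at pairing, each library was taken as its deviations from the mean of its arm, gene by gene, on the log2(FPKM + 1) scale. Between arms, the deviations of same-numbered libraries correlated at 0.0834, 0.0765 and 0.0570 in 786-O. Every library there correlated best with its own number. In 5637 the correlations of these deviations ran from -0.0314 to 0.0234 for same-numbered libraries. The values themselves, not taken as deviations, correlated between arms at 0.964 to 0.965 in 786-O. The main fits did not take the numbers to pair the samples in either line, and whether they do in 786-O was not tested. Depth limits AEBP2, EZH1, EED and JARID2 most in 786-O, with as few as 271, 251, 333 and 326 reads in a library.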
